A study of Bombyx mori with 6 samples.

Results

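The protein disulfide-isomerase family was followed in RNA sequencing libraries of the silkworm, Bombyx mori, as 5 gene models of 16877 in the deposited table. The models were taken by identifier. They are ERp57 (KWMTBOMO03002), protein disulfide-isomerase A6 (KWMTBOMO02468), protein disulfide-isomerase A5 (KWMTBOMO00256), KWMTBOMO04873 and KWMTBOMO04871. The name of the family holds less firmly for the last 2 models. Only 3 of the 5 have a protein disulfide-isomerase description in the NR protein database. KWMTBOMO04871 is described there as an uncharacterized silkworm protein and KWMTBOMO04873 as a hypothetical protein of the butterfly Papilio xuthus. Their closest Swiss-Prot entries are the human proteins PDIA5 for KWMTBOMO04871 and P4HB, the classical protein disulfide-isomerase, for KWMTBOMO04873, and the table lists thioredoxin domains for both. These are called PDI-like below. The abundant silkworm gene that the table itself names Pdi (KWMTBOMO06524) is not among the 5 and serves as a comparison.

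Of the 6 libraries, 3 were labelled siUFBP1, for a small interfering RNA (siRNA) against UFBP1, and 3 were labelled siNC, for a negative control siRNA. UFBP1 is a membrane protein of the endoplasmic reticulum (ER) that takes part in ufmylation, the attachment of the protein UFM1 to its targets. The labels' protocols describe larvae of the P50 strain, on day 3 of instar 5, that were injected with 2.5 µg of siRNA and were all given the baculovirus BmNPV 12 h later, the controls included, with fat body taken at 24, 48 and 72 h. The time of each library is not labelled, and the labels also name BmN, an ovary-derived silkworm cell line, and its transfection, so that the source of the RNA cannot be settled from the labels.

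Protein disulfide-isomerases are thioredoxin-fold enzymes of the ER lumen that form, break and rearrange the disulfide bonds of newly made secreted and membrane proteins. Their active-site cysteines are reoxidised mainly by the ER oxidase Ero1. Family members divide the work: in mammals ERp57 acts on glycoproteins that are held by the lectin chaperones calnexin and calreticulin, and PDIA6 works together with the chaperone BiP. The larval fat body is a major secretory organ that releases most hemolymph proteins.

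The libraries held 26610347, 25570725 and 53204480 counts in siUFBP1 and 28098267, 31760120 and 27100565 in siNC. UFBP1 itself (KWMTBOMO13599) had 32.7, 34.4 and 34.6 TMM-normalized CPM (a count divided by a library size that TMM corrects for composition) in the libraries labelled siUFBP1, against 36.5, 31.1 and 34.2 in those labelled siNC. The groups overlapped, and edgeR's quasi-likelihood test put the log2 fold change at 0.0043 ± 0.06 (SE, adjusted p = 0.951). That call turned with the scaling: UFBP1 passed as lower with upper quartile scaling (-0.14, edgeR adjusted p = 0.0406) and as higher with library size alone (0.80, edgeR adjusted p = 1.55e-10). The transcript level therefore does not settle the labels, and directions below, siUFBP1 over siNC, rest on the labels alone. The composition of the libraries differed too. Fat body markers took 47.7% to 49.1% of the counts in siUFBP1 and 74.2% to 74.7% in siNC. Silk gland markers took 10.1% to 11.8% in siUFBP1 and 0.0596% to 0.0619% in siNC.

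The 5 genes spanned a wide range of abundance, and their order was the same in 6 of 6 libraries. Levels between genes were compared as FPKM, a deposited unit that corrects the counts for sequencing depth and gene length. ERp57 was the most abundant, at 222.1 ± 16.2 FPKM in siUFBP1 and 223.1 ± 7.98 FPKM in siNC (SD, n = 3 each). That siNC level exceeds the mean FPKM of 99.0% of all gene models. A6 followed with 79.5 ± 4.37 FPKM in siUFBP1 and 68.5 ± 1.92 FPKM in siNC, and A5 with 16.3 ± 2.06 FPKM in siUFBP1 and 5.72 ± 0.249 FPKM in siNC (SD, n = 3 each). The PDI-like KWMTBOMO04873 stood at 7.46 ± 0.442 FPKM in siUFBP1 and 1.32 ± 0.0619 FPKM in siNC, and KWMTBOMO04871 at 1.35 ± 0.135 FPKM in siUFBP1 and 0.300 ± 0.10 FPKM in siNC (SD, n = 3 each). Neighbours in this order were well apart within every library. The smallest FPKM ratio between neighbours in any library was 2.085, between A5 and KWMTBOMO04873. From most to least abundant, the group means spanned a factor of 164.6 in siUFBP1 and of 742.7 in siNC.

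**Figure D1:**
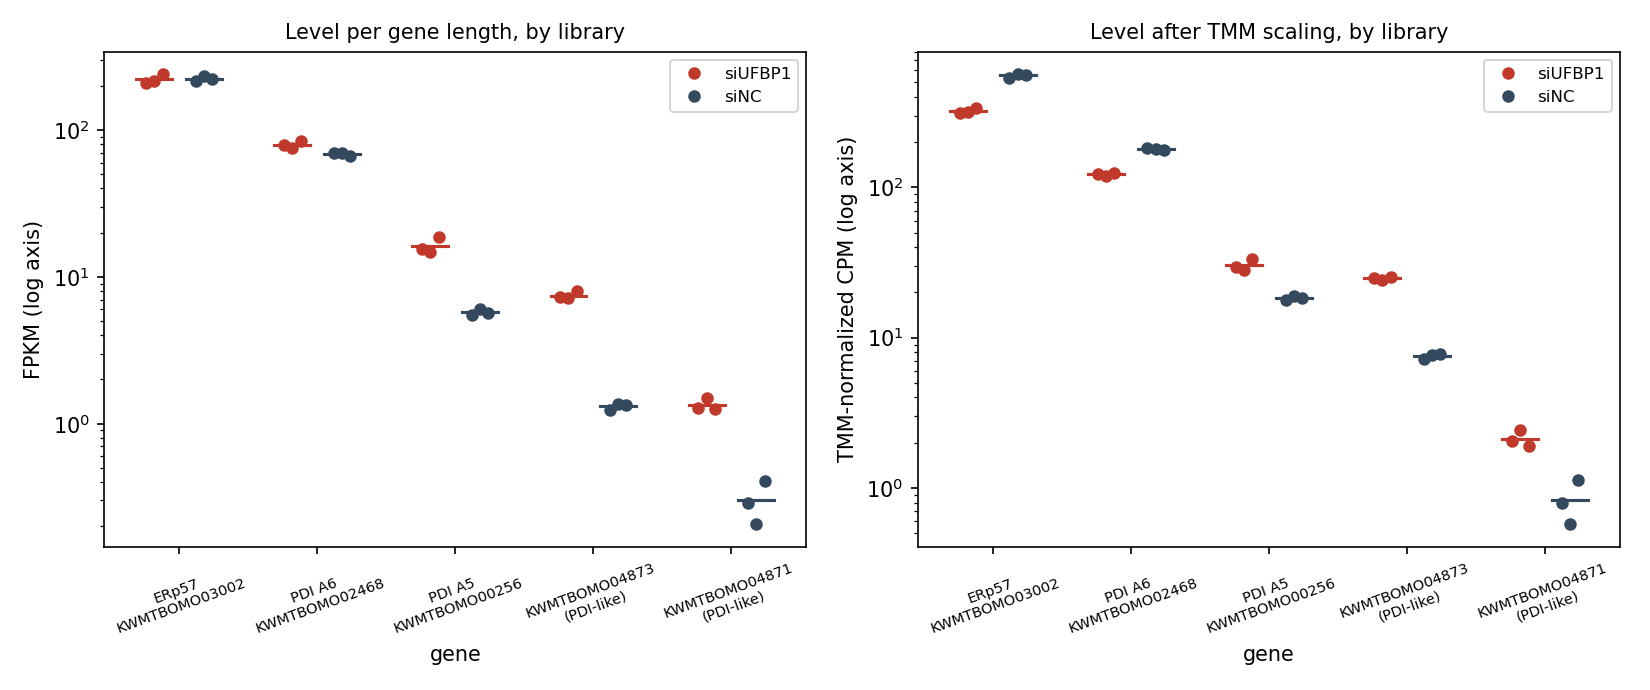
FPKM (left) and TMM-normalized CPM (right), both on log axes, of the 5 genes in each library, siUFBP1 in red and siNC in dark blue, with a line at each group mean (n = 3 each). ERp57 and A6 lie lower in siUFBP1 after TMM scaling and not in FPKM, while the 3 rarer genes lie higher in siUFBP1 on both scales.

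The abundant and the rarer genes moved in opposite directions under TMM scaling. ERp57 and A6 were lower in siUFBP1, and A5, KWMTBOMO04873 and KWMTBOMO04871 were higher, each with no overlap between groups. All 5 passed the test, in a data set where 68.4% of the 10729 tested genes passed, 40.0% as higher and 28.4% as lower, and where the groups did not overlap for 71.2%. A count of 5 in 5 therefore sets the family little apart from the rest of the genes. With library size alone, 80.2% of tested genes were higher and 4.21% lower. Under TMM scaling the 2 PDI-like genes alone among the 5 changed 2-fold or more, both higher, while A5 also passed that size with library size alone. This stands against 22.7% of tested genes that were higher and 5.11% that were lower by that much under TMM scaling. The median log2 fold change of the 5 was 0.74, beside 0.114 over all tested genes.

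ERp57 had 313.7, 318.7 and 335.1 TMM-normalized CPM in siUFBP1, against 538.3, 568.0 and 563.0 in siNC. All siUFBP1 libraries lay below all siNC libraries. The decrease was 1.72-fold, or -0.79 ± 0.03 as a log2 fold change (SE, edgeR adjusted p = 1.97e-13). ERp57 also has a log2 fold change of -0.79 in the authors' deposited table (DESeq2 adjusted p = 2.05e-119), where it is nevertheless not called.

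A6 had 123.6, 118.3 and 123.9 TMM-normalized CPM in siUFBP1, against 183.2, 180.6 and 177.3 in siNC. Again every siUFBP1 library was the lower one. The decrease was 1.48-fold, or -0.56 ± 0.03 as a log2 fold change (SE, edgeR adjusted p = 3.03e-11).

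The decreases of ERp57 and A6 rest on the scaling between libraries. The TMM factors were 1.28 to 1.38 in siUFBP1 and 0.746 to 0.767 in siNC. With library size alone, the median of all tested genes was 0.802 higher on the log2 scale than with TMM. On that scale ERp57 did not pass (log2 fold change 0.013, edgeR adjusted p = 0.813) and A6 was higher (0.23, edgeR adjusted p = 0.000231). Both genes lay below that median, as they did under TMM scaling. A change of scaling moves all genes about alike, so this could not have come out otherwise and is no separate support. Which scaling fits these libraries was not tested. In these bulk libraries, fewer cells of a type and less RNA per cell cannot be told apart.

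A5 had 29.4, 28.2 and 33.3 TMM-normalized CPM in siUFBP1, against 17.7, 18.9 and 18.4 in siNC. All siUFBP1 libraries were above all siNC libraries. The log2 fold change was 0.74 ± 0.07 (SE, edgeR adjusted p = 2.49e-08), a 1.67-fold increase, and it was 1.53 with library size alone. In mammals PDIA5 has been linked to activation of ATF6, a sensor of ER stress.

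KWMTBOMO04873, the PDI-like gene closest to human P4HB, showed the largest change of the 5. It had 25.0, 24.2 and 25.4 TMM-normalized CPM in siUFBP1, against 7.19, 7.72 and 7.77 in siNC. No library overlapped between groups. The log2 fold change was 1.72 ± 0.07 (SE, edgeR adjusted p = 1.3e-13), a 3.29-fold increase, and it was 2.52 with library size alone. Its summed counts were 3518 in siUFBP1 and 499 in siNC. The lengths that counts and FPKM imply make its model the longest of the 5, at 4380 bases against 1906 to 2444 for the others.

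KWMTBOMO04871, the PDI-like gene closest to human PDIA5, was the rarest. It had only 70, 80 and 139 counts in siUFBP1 and 17, 14 and 23 counts in siNC. After TMM scaling these were 2.06, 2.42 and 1.89 CPM in siUFBP1 against 0.793, 0.575 and 1.14 CPM in siNC, again with no overlap. The log2 fold change was 1.35 ± 0.24 (SE, edgeR adjusted p = 9.44e-05), a 2.54-fold increase, and it was 2.15 with library size alone. Its coefficient of variation after TMM scaling was 34.0% in siNC, against 1.62% to 4.27% for the other 4 genes. In siUFBP1 it was 12.6%, against 2.58% to 8.84% for the other 4. How much of this spread comes from the low counts was not tested. The authors' deposited table calls KWMTBOMO04873 and KWMTBOMO04871 up, with log2 fold changes of 1.71 and 1.35, and calls none of the other 3. No source used here says how reads shared by similar genes were counted, so that values of these 2 models are uncertain where their sequences are alike.

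**Figure D2:**
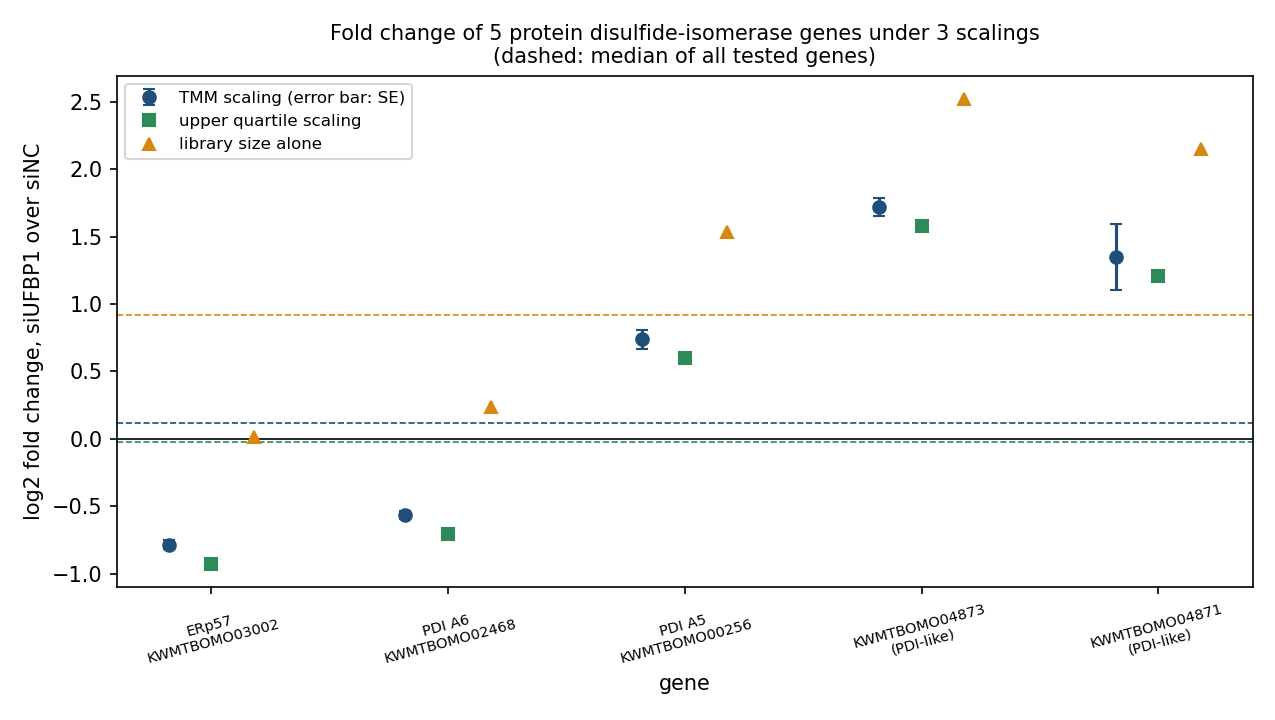
Log2 fold change, siUFBP1 over siNC, of the 5 genes under TMM scaling (circles, error bars SE), upper quartile scaling (squares) and library size alone (triangles), with dashed lines at the median of all tested genes under each. The 3 rarer genes are above 0 under all 3 scalings, while ERp57 and A6 are below 0 under TMM and upper quartile scaling and at 0.013 and 0.23 with library size alone.

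Ratios of genes within a library do not depend on the scaling between libraries. All 10 pairs of the 5 genes were compared, and in 8 the groups did not overlap. The share of all gene pairs without overlap was not counted. Among single tested genes, 71.2% did not overlap under TMM scaling, so a count of 8 in 10 by itself sets the family little apart. With 3 libraries a group, the exact two-sided permutation test cannot go below a p of 0.1, and these 8 pairs reached it (0.125 adjusted over the 10 pairs), so no pair can pass a threshold of 0.05. The ratio of ERp57 to A6 was the least changed of the 8. Its FPKM ratio was 2.79 ± 0.0985 in siUFBP1 and 3.26 ± 0.136 in siNC (SD, n = 3 each), a 1.17-fold lower count ratio in siUFBP1.

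The shift between abundant and rarer genes was larger. The FPKM ratio of ERp57 to A5 was 13.7 ± 0.80 in siUFBP1 and 39.0 ± 0.404 in siNC, and that of ERp57 to KWMTBOMO04873 was 29.8 ± 0.819 in siUFBP1 and 169.6 ± 2.98 in siNC (SD, n = 3 each). Their log2 count ratios differed by -1.51 and -2.51, siUFBP1 minus siNC. ERp57 to KWMTBOMO04871 differed by -2.18 on the same scale. Among the rarer genes, A5 to KWMTBOMO04873 differed by -0.996 with no overlap between groups. The 2 PDI-like genes could not be told apart in their response. Their log2 count ratio, KWMTBOMO04873 to KWMTBOMO04871, was 3.56 ± 0.217 in siUFBP1 and 3.23 ± 0.490 in siNC (SD, n = 3 each), overlapping (exact permutation p = 0.4, 0.4 adjusted over the 10 pairs). A5 to KWMTBOMO04871 also overlapped, with a difference of -0.67 (exact permutation p = 0.2, 0.222 adjusted over the 10 pairs).

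**Figure D3:**
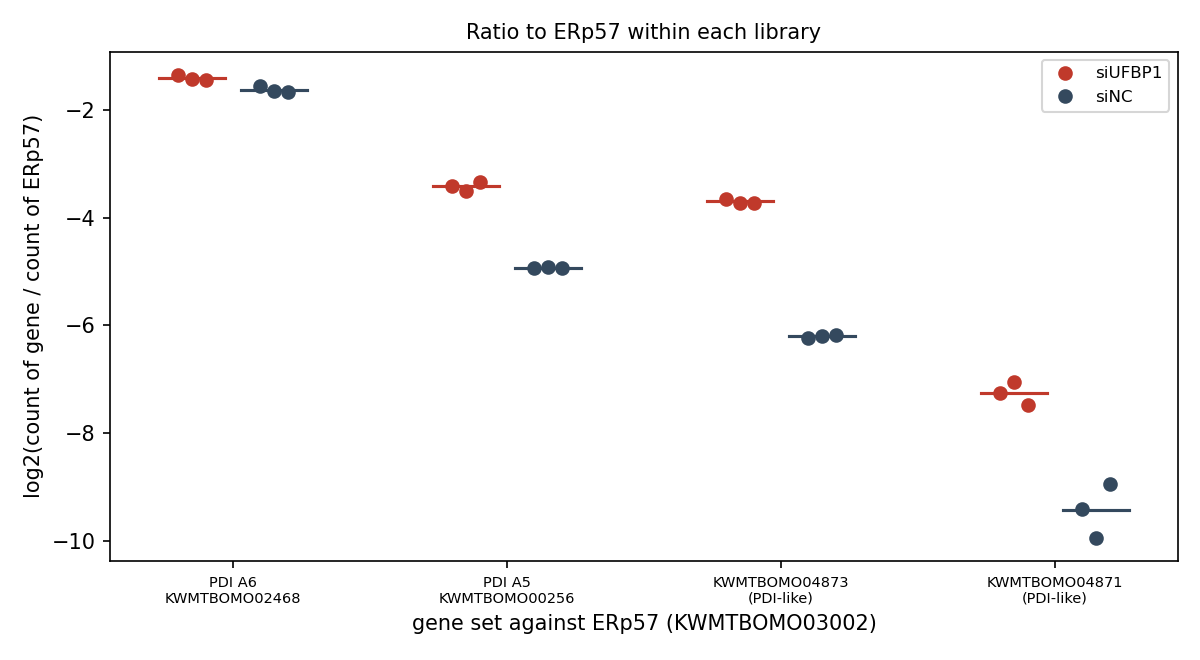
Log2 ratio of the count of each gene to the count of ERp57 in the same library, siUFBP1 in red and siNC in dark blue, with lines at group means (n = 3 each). Every gene stands higher relative to ERp57 in the siUFBP1 libraries, 1.17-fold for A6 and 5.68-fold for KWMTBOMO04873 in the means.

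In terms of shares, ERp57 held 68.0% ± 0.646 of the summed FPKM of the 5 genes in siUFBP1 and 74.6% ± 0.717 in siNC (SD, n = 3 each). A6 held 24.4% ± 0.651 in siUFBP1 and 22.9% ± 0.753 in siNC. The 3 rarer genes together held 7.67% ± 0.219 in siUFBP1 and 2.45% ± 0.0396 in siNC (SD, n = 3 each). A5 made up most of that, with 4.97% ± 0.287 in siUFBP1 and 1.91% ± 0.0274 in siNC. The summed level of the 5 genes was 312.9, 314.7 and 352.8 FPKM in siUFBP1 and 292.1, 308.8 and 295.9 FPKM in siNC, so that the groups did not overlap but lay close together. No test was run on shares or sums.

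Pdi (KWMTBOMO06524) was added to the comparison after its values were seen. It exceeded all 5 genes, with 1012 ± 37.1 FPKM in siUFBP1 and 703.0 ± 15.8 FPKM in siNC (SD, n = 3 each). Its log2 fold change under TMM scaling was -0.25 ± 0.03 (SE), with an edgeR adjusted p of 7.46e-08, and it was 0.54 with library size alone. Against Pdi in the same library, ERp57 stood at 21.9% ± 0.814 of its FPKM in siUFBP1 and 31.7% ± 1.06 in siNC, and A6 at 7.86% ± 0.28 in siUFBP1 and 9.75% ± 0.0858 in siNC (SD, n = 3 each). KWMTBOMO04873 stood at 0.737% ± 0.0253 in siUFBP1 and 0.187% ± 0.00934 in siNC. These ratios leave out KWMTBOMO16867, a further model of the same Pdi gene number. That model also exceeded all 5 genes, at 362.4 ± 14.95 FPKM in siUFBP1 and 270.1 ± 9.656 FPKM in siNC (SD, n = 3 each). BiP (KWMTBOMO08642), which the series title names, was itself 2.29-fold lower under TMM scaling (log2 fold change -0.40 with library size alone). Only 5.11% of tested genes were lower by 2-fold or more under TMM scaling. Any gene that fell less than BiP stands higher against it. All 5 genes stood higher against BiP in siUFBP1, which by itself sets the family little apart. ERp57 reached 38.8% ± 1.15 of the FPKM of BiP in siUFBP1 and 29.3% ± 0.545 in siNC, and A6 13.9% ± 0.406 in siUFBP1 and 8.99% ± 0.337 in siNC (SD, n = 3 each). No library overlapped between groups in any of these ratios, on which no test was run. The share of all genes without overlap in such ratios was not counted.

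Genes related to the family by their descriptions were grouped into 4 lists. Their counts stand against 40.0% of all tested genes higher and 28.4% lower under TMM scaling, and 80.2% higher and 4.21% lower with library size alone. Other PDI-like and thioredoxin-fold genes, some of which act outside the ER, numbered 17, of which 15 were tested. The test called 5 higher and 5 lower and left 5 uncalled, a share of calls near the 68.4% of all tested genes, with a median log2 fold change of 0.0369 beside 0.114 over all tested genes. Library size alone turned this to 15 higher and none lower, where 80.2% of all tested genes were higher. The smallest adjusted p was that of KWMTBOMO09218, described as thioredoxin domain-containing protein 2, a name given in mammals to a sperm protein. It had 92, 77 and 224 counts in siUFBP1 and 0 in each siNC library, at least 61.5-fold higher against a floor of 3 counts over the siNC group (edgeR adjusted p = 1.26e-09). KWMTBOMO16867, a second model of the same silkworm Pdi gene number, was at -0.36 ± 0.03 on the log2 scale (0.44 with library size alone), and thioredoxin domain-containing protein 9 (KWMTBOMO06076) at 0.76 ± 0.07 (SE, 1.56 with library size alone). The list also holds 2 models described as isoforms of ER resident protein 44 (ERp44), which were called in opposite directions. KWMTBOMO05805 (isoform X1) was at 1.14 ± 0.20 and KWMTBOMO05806 (isoform X2) at -0.15 ± 0.05 (SE, 1.94 and 0.65 with library size alone). KWMTBOMO05805 was far rarer, with 90, 82 and 237 counts in siUFBP1 and 31, 33 and 21 in siNC. KWMTBOMO05806 had 1276, 1324 and 2973 counts in siUFBP1 and 971, 1033 and 888 in siNC. Their implied lengths were 771 and 1596 bases.

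A list of 5 oxidant genes was picked by description, and not all of them need act on the family. FAD-linked sulfhydryl oxidase ALR (KWMTBOMO06916), among those called higher, was at 0.60 ± 0.13 on the log2 scale (SE, 1.40 with library size alone). In this list the test called 2 higher and 2 lower and left 1 uncalled (40.0% higher and 28.4% lower over all tested genes). The median log2 fold change of the list was 0.0060. All 5 were higher with library size alone, as were 80.2% of all tested genes. Ero1 (KWMTBOMO05932), the main oxidase of protein disulfide-isomerases, changed more than any of the 5 family genes. It had 45.5, 45.1 and 42.6 TMM-normalized CPM in siUFBP1, against 2.29, 2.67 and 3.41 in siNC. All siUFBP1 libraries lay far above all siNC libraries. The increase was 15.9-fold, or 3.99 ± 0.09 as a log2 fold change (SE, edgeR adjusted p = 3.26e-17). Library size alone gave 4.79. Sulfhydryl oxidase 1 (KWMTBOMO00438), which makes disulfides without protein disulfide-isomerase, went the other way, at -0.68 ± 0.03, and peroxiredoxin-4 (KWMTBOMO05276) was at -0.30 ± 0.06 (SE). These 2 decreases turned to 0.12 and 0.50 with library size alone.

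Of 6 gene models for partners of Pdi or ERp57, 5 were lower, none was higher and 1, calnexin, did not pass (edgeR), where 28.4% of all tested genes were lower. Their median log2 fold change was -0.82. The 5 include 2 models with the same description, UDP-glucose:glycoprotein glucosyltransferase, so that 1 partner may be counted more than once. These were KWMTBOMO09076 at -0.74 and KWMTBOMO09077 at -0.90 (0.06 and -0.10 with library size alone). Library size alone left 2 lower and 2 higher, beside 4.21% lower and 80.2% higher over all tested genes. Calreticulin (KWMTBOMO12902), a lectin partner of ERp57, was at -0.92 ± 0.03 on the log2 scale (SE), and at -0.12 with library size alone. The microsomal triglyceride transfer protein (KWMTBOMO01030), whose mammalian form holds protein disulfide-isomerase as a subunit, was at -1.13 ± 0.04 (-0.33 with library size alone). The alpha subunit of prolyl 4-hydroxylase (KWMTBOMO07189), which in animals pairs with protein disulfide-isomerase, was at -0.57 ± 0.04 (SE) and at 0.23 with library size alone. The 3 other ER lumen chaperones, BiP included, were all lower under TMM scaling (median -1.20) and with library size alone.

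**Figure D4:**
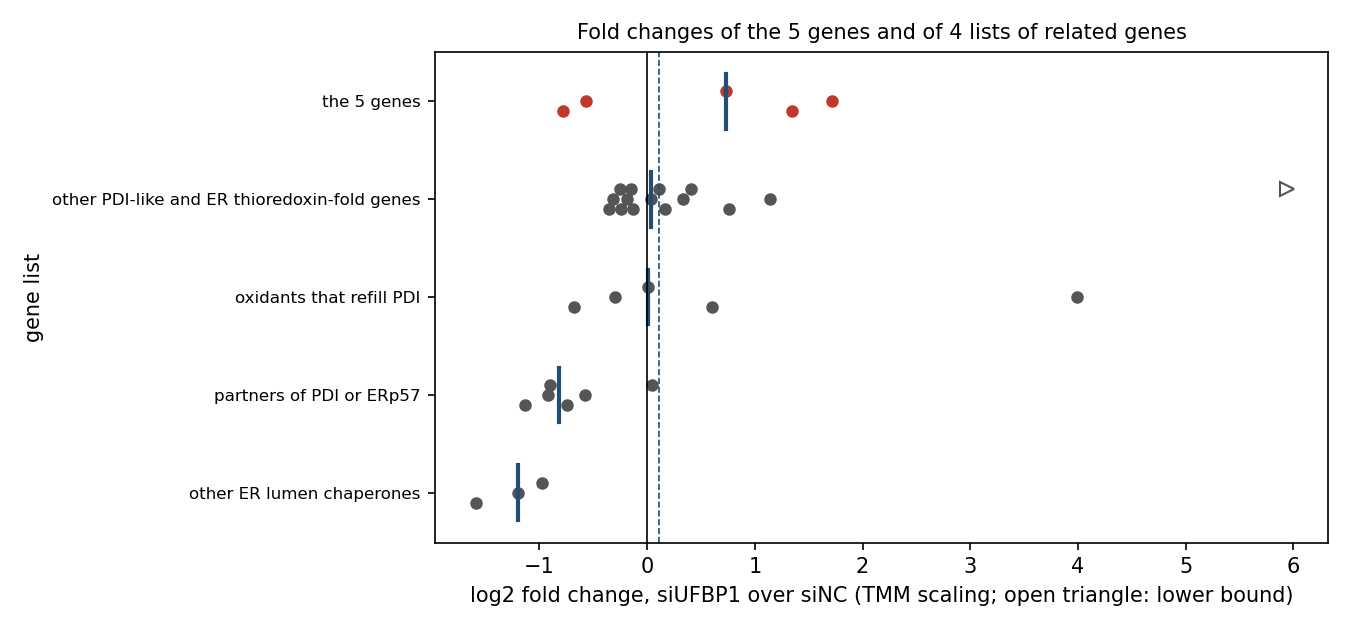
Log2 fold change, siUFBP1 over siNC under TMM scaling, of the 5 genes (red) and of the tested genes of 4 lists (grey), with a blue bar at each median and a dashed line at the median of all tested genes. The 5 genes spread from -0.79 to 1.72, the chaperones and all partners but calnexin lie below 0, and Ero1 stands at 3.99. The open triangle is a lower bound for a gene with no siNC count.

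The genes with the most similar profile differed between members. Similarity was the root mean square difference of centred log2 CPM over the 6 libraries, among 5430 described genes, and since the libraries form 2 groups it mostly finds genes of like fold change. Nearest to ERp57 were fibulin-1 (KWMTBOMO15985, 0.0142), a lipid storage droplet gene (KWMTBOMO03252, 0.0188) and a TAR DNA binding protein homolog (KWMTBOMO06893, 0.0243). Nearest to A6 was the prolyl 4-hydroxylase alpha subunit (0.0180), then NADPH-specific isocitrate dehydrogenase (KWMTBOMO09054, 0.0189) and a 30 kDa lipoprotein of the fat body (KWMTBOMO11895, 0.0199). Nearest to A5 were genes for an F-box/LRR-repeat protein (KWMTBOMO02773, 0.0425), an ATP-binding cassette transporter (KWMTBOMO04568, 0.0475) and an F-box/WD repeat protein (KWMTBOMO02929, 0.0526). KWMTBOMO04873 had the closest profile to a putative exonuclease (KWMTBOMO04518, 0.0368), muscle myosin heavy chain (KWMTBOMO04271, 0.0405) and a beta-1,3-glucan recognition protein (KWMTBOMO06449, 0.0407). For KWMTBOMO04871 the nearest genes were farther away, at 0.110 for an MCM9-like helicase (KWMTBOMO03495) and 0.138 and 0.139 for 2 uncharacterized genes (KWMTBOMO15713, KWMTBOMO05000).

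Markers of several tissues moved with these changes. Over all tested genes 40.0% were higher and 28.4% lower. Of 42 tested fat body markers, 29 were lower and 1 was higher, with a median log2 fold change of -0.817. Those higher were 5 of 8 tested for silk gland and 8 of 8 for muscle, with none lower in either list (edgeR). For cuticle 39 of 47 were higher and 1 was lower, for testis 27 of 39 were higher and 5 lower, and for midgut 16 of 25 were higher and 7 lower. Muscle markers took 0.191% to 0.203% of the counts in siUFBP1 and 0.0357% to 0.0378% in siNC, cuticle markers 0.193% to 0.209% in siUFBP1 and 0.0438% to 0.0439% in siNC, and testis markers 0.0985% to 0.107% in siUFBP1 and 0.0299% to 0.0322% in siNC. Midgut markers took 0.507% to 0.551% in siUFBP1 and 0.479% to 0.491% in siNC. For hemocytes 18 of 35 markers were lower and 11 higher, at 0.0332% to 0.0352% of the counts in siUFBP1 and 0.0251% to 0.0261% in siNC. Ovary and germ line markers had 4 of 6 lower and 1 higher, at 0.0218% to 0.0236% in siUFBP1 and 0.0146% to 0.0157% in siNC. Genes without a count in any library of a group numbered 10 of 66 for fat body, 1 of 11 for silk gland, 2 of 12 for muscle, 66 of 166 for cuticle, 2 of 45 for testis, 25 of 81 for midgut, 4 of 53 for hemocytes and 12 of 28 for ovary and germ line in siUFBP1. In siNC these numbers were 12, 3, 3, 101, 16, 46, 8 and 21 in the same order. Sericin 2 (KWMTBOMO06334) was among the silk gland genes at 0 in siNC, while the fibroin heavy chain (KWMTBOMO15365) had 9647252 summed counts in siUFBP1 and 7116 in siNC. The part of these tissues in the changes of the 5 genes was not tested.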

How the data were processed

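RNA sequencing of 6 libraries was analysed, grouped by title. Reads were trimmed with fastp and aligned with HISAT2, per the submitters' processing notes. No source used here gives their versions, the counter, strand handling or the genome build. The deposited table holds raw read counts per gene model and the authors' FPKM values, per the file headers. The authors' DESeq2 log2 fold changes and adjusted p-values come from the same deposited table. In it, 3 lines were empty, and 16877 gene models were read. Of 5 members, 4 matched a RefSeq gene, used for names only.

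Counts were filtered with filterByExpr (edgeR 4.0.16), which left out 6148 gene models with 0.0479% of the counts, and scaled by TMM. The test was edgeR's quasi-likelihood test, group only, over all genes, with calls where the p adjusted by Benjamini-Hochberg was at most 0.05. The fitting steps were tested on simulated data in which few genes changed. That test does not cover a difference in composition as large as the one here. Standard errors come from the log2 fold change and the F statistic. The common biological coefficient of variation was 3.87%. A count of 3 equals 0.0564 to 0.117 CPM, and floors cover counting error only. Replicates differed beyond sampling noise. Chi-square per degree of freedom was 14.8 and 11.2 for the pairs that hold siUFBP1 replicate 3, the deepest library. It was 2.70 to 3.65 for all other pairs within a group. The labels name no separate animals or cultures, so p-values speak for the spread among these libraries, which may be technical.

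The members, lists and tests were chosen with earlier results of these data known. Lists were patterns on product descriptions, matched at word boundaries. Tissue markers used NR descriptions only. Named genes are the members, UFBP1, up to 3 genes of each list by adjusted p and the 3 most similar profiles. Pdi, the ratios to Pdi and BiP, calnexin, sericin 2 and the fibroin heavy chain fall outside that rule and were added after values were seen. The same holds for sulfhydryl oxidase ALR, the 2 ERp44 models and the 2 glucosyltransferase models. Similar profiles used log2(CPM + 0.5) of genes with a mean of at least 5 CPM and an NR description. Alternatives were 4 other scalings, 2 other filters, DESeq2 1.42.0, limma 3.58.1 (voom, and trend on FPKM), replicate number as a block and leaving out each library.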

Additional observations from a re-analysis of the deposited data

How the results depend on the processing

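A5 and KWMTBOMO04873 kept their direction and call under all alternatives run, as did KWMTBOMO04871 wherever it was tested (its mean was under 1 FPKM, so limma-trend gave no value). ERp57 and A6 kept theirs except without a composition correction. With library size alone their log2 fold changes were 0.013 and 0.23, with limma-trend on log2(FPKM + 1) -0.0078 and 0.21, and on log2(FPKM + 0.1) -0.0078 and 0.21. In the same 3 settings UFBP1 passed as higher at 0.80, 0.77 and 0.78 (adjusted p = 1.55e-10, 9.08e-07 and 9.23e-06), and with upper quartile scaling it passed as lower at -0.14 (adjusted p = 0.0406). Genes called higher and lower were 8604 and 452, 6625 and 406, and 6601 and 406, against 4293 and 3043 under TMM, and 3641 and 3806 with upper quartile scaling. A 2-fold minimum left 2984 genes, 2436 higher and 548 lower. The causes of these differences were not tested.

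Leaving out each library gave -0.817 to -0.763 for ERp57, -0.579 to -0.543 for A6, 0.649 to 0.785 for A5, 1.68 to 1.74 for KWMTBOMO04873, 1.11 to 1.62 for KWMTBOMO04871 and -0.062 to 0.057 for UFBP1, with all calls of the 5 genes kept. The 10 within-library ratios kept their sign. Same-numbered libraries did not deviate together (r = 0.0144, -0.0128 and 0.0194), and 1 of 3 siUFBP1 libraries correlated best with its own number. With the replicate number as a block, 6842 genes were called, against 7336 without it, and the 5 genes kept their calls at -0.79, -0.56, 0.72, 1.72 and 1.35, with UFBP1 at 0.0018. Depth limits KWMTBOMO04871 most, at 14 to 23 counts per siNC library.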

Other observations

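The 2 PDI-like models lie 2 numbers apart in the table, with a model described as a retrotransposon polyprotein (KWMTBOMO04872) between them. Their neighbours by number were read after the values of the pair were seen. KWMTBOMO04870, described as 2-acylglycerol O-acyltransferase 2-A-like, had 235, 209 and 512 counts in siUFBP1 and 48, 40 and 41 in siNC, a log2 fold change of 1.79 (edgeR, adjusted p = 1.56e-09). The uncharacterized KWMTBOMO04868 had 229, 228 and 503 counts in siUFBP1 and 12, 16 and 10 in siNC, a log2 fold change of 3.56 (edgeR, adjusted p = 1.4e-12). KWMTBOMO04872, between the pair, did not pass, with a log2 fold change of 0.17 (edgeR, adjusted p = 0.651). On the other side, the actin-binding protein myophilin (KWMTBOMO04875) was lower, with 40, 49 and 135 counts in siUFBP1 and 176, 173 and 172 in siNC and a log2 fold change of -2.34 (edgeR, adjusted p = 1.49e-10). KWMTBOMO04869, described as 2-acylglycerol O-acyltransferase 2-A, had 57, 46 and 116 counts in siUFBP1 and 0 in each siNC library. KWMTBOMO04874 and KWMTBOMO04876, both described as reverse transcriptases, did not pass (edgeR, adjusted p = 0.0844 and 0.475). No source used here says whether the numbering follows position on a chromosome.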
